A study of Mus musculus with 10 samples.

Results

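The genes described here are 10 integrins and adhesion molecules of leukocytes and erythroblasts, out of 17606 genes measured: the leukocyte integrin chain Itgb2 (beta 2, CD18) with its alpha partners Itgal (CD11a), Itgam (CD11b) and Itgax (CD11c), the chains Itga4 (alpha 4, CD49d), Itgb1 (beta 1, CD29) and Itgb3 (beta 3, CD61), the integrin ligands Icam1 and Icam4, and Pecam1 (CD31). They were chosen by name, as leukocyte and erythroblast integrins and their ligands, and all 10 had values in every library. RNA was sequenced from 10 libraries of cells that the labels name EPC, without spelling the abbreviation out, sorted by flow cytometry from wild-type female C3H/HeN mice bearing tumors of SCC7, a mouse squamous carcinoma line. There were 3 libraries of splenic CD45- cells, 3 of splenic CD45+ cells and 4 of tumor CD45+ cells. Whether each replicate is a mouse of its own is not stated, so the p-values reflect the spread of these libraries alone, and that spread may be technical.

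Integrins are pairs of an alpha and a beta chain that reach through the cell membrane and bind other cells or matrix on the outside and the actin skeleton on the inside. Beta 2 integrins are found on leukocytes: with alpha L the chain forms LFA-1, which binds ICAM-1, with alpha M it forms Mac-1, a receptor of neutrophils, monocytes and macrophages that also binds complement fragments, and with alpha X it forms a receptor of dendritic cells and macrophages. Alpha 4 pairs with beta 1 to form VLA-4, which binds VCAM-1 and fibronectin and holds erythroblasts on the central macrophage of an erythroblastic island. ICAM-4, the Landsteiner-Wiener blood group protein, lies on erythroid cells and binds alpha V and other integrins of the macrophage.

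The windows of 250 bases before the gene start are shown for 3 members, the erythroblast ligand Icam4, its companion Itga4 and the beta 2 partner Itgam, as examples of the erythroblast and the beta 2 sides of the comparison below. They are RefSeq sequences of GRCm38.p6, which is also the build of the deposited values, and windows were found for 6 of the 10 members, with none for Itgb2, Itgal, Itgb3 and Pecam1. All 3 lie on the plus strand: Icam4 at chr9:21029182-21029431, Itga4 at chr2:79255176-79255425 and Itgam at chr7:128062390-128062639. Capitals mark every match on either strand to AGATAA, a core motif of GATA factors, CACCC, the box bound by KLF factors, and GAGGAA, an ETS core as bound by PU.1. No match overlapped another.
Icam4: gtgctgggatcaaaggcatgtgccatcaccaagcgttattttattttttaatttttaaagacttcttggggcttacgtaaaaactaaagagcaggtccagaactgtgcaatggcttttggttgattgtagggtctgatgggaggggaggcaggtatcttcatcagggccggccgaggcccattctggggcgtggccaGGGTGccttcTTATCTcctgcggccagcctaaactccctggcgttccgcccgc
Itga4: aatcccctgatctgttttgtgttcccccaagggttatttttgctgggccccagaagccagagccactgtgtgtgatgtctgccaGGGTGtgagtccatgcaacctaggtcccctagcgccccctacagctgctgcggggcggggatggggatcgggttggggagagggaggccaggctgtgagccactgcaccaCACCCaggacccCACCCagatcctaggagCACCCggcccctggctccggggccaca
Itgam: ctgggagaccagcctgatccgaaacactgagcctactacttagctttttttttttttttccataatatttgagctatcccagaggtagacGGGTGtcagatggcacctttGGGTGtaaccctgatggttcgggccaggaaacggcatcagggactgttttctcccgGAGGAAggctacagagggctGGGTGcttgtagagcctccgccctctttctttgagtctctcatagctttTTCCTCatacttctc
The Icam4 window held 1 AGATAA match, 43 bases before the start, and 1 CACCC match, 53 bases before it, counting from the match's first printed base. The Itga4 window held 4 CACCC matches and neither of the other motifs, and the Itgam window held 3 CACCC and 2 GAGGAA matches. The windows not shown did not keep to these sides. That of Itgax, another beta 2 partner, held 1 AGATAA match and neither of the other motifs. That of Itgb1, the partner of alpha 4, held 2 CACCC and 1 GAGGAA match, and that of Icam1 held 2 CACCC matches. Among all 32851 windows in the table, 10% held AGATAA, 52.0% CACCC and 23.3% GAGGAA. These are matches of letters, not sites of binding.

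Icam1 (chromosome 9, 21015940 to 21028814) ends 617 bases before Icam4 (21029432 to 21030596), and Icam5 follows 1441 bases after Icam4. Itgam (chromosome 7, 128062640 to 128118491) ends 11034 bases before Itgax (128129526 to 128150657), with Itgal on the same chromosome at 127296139 to 127335137. Itga4 lies on chromosome 2 (79255426 to 79333114), Itgb1 on 8 (128685654 to 128733579), Itgb2 on 10 (77530329 to 77565708), and Itgb3 (104608000 to 104670476) and Pecam1 (106654213 to 106715281) on 11.

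Levels were read as FPKM, although no label names the unit. These are fragments scaled by transcript length and by the fragments mapped in the library, so levels of different genes can be set side by side. From the steps between low values, each library held roughly 17800000 to 20900000 fragments. Ptprc, which encodes CD45, was at 1.63 to 2.57 FPKM in splenic CD45- libraries, 39.2 to 265 in splenic CD45+ and 59.4 to 92.5 in tumor CD45+ libraries, so it followed the gate. The erythroid genes Klf1 and Gata1 were high in every splenic library, with Gata1 at 109 FPKM or more. In tumor libraries Klf1 did not exceed 0.450 and Gata1 0.270 FPKM, so libraries that carry the same EPC label nearly lacked these 2 genes. Of 11 erythroid markers, 4 (Hbb-bs, Klf1, Epor and Gata1) were below 1 FPKM in every tumor library. Hbb-bs was low in spleen as well, at 1.68 to 3.87 FPKM in CD45- and 0.43 to 1.67 in CD45+ libraries. All 11 summed to 326077 to 416645 FPKM in splenic CD45-, 129495 to 276491 in splenic CD45+ and 6001 to 40981 in tumor libraries. Most of the tumor sum was Hba-a1, at 5916 to 40541 FPKM. The 8 monocyte and macrophage markers summed to 20149 to 39908 FPKM in tumor libraries, 1333 to 3829 in splenic CD45+ and 50.1 to 96.6 in splenic CD45- libraries. Most of this sum in every CD45+ library was Lyz2, at 2514, 1276 and 3302 FPKM in splenic CD45+ replicates 1 to 3 and 11438 to 29160 in tumor libraries. Csf1r was at 201, 9.39 and 40.5 FPKM in those splenic replicates and at 253.5 to 304.8 in tumor libraries. In the splenic CD45+ group replicate 2 stood apart, with 5 B cell markers at a sum of 130.6 against 1172 and 1084 FPKM. Among tumor libraries replicate 1 differed from the rest, with 1616 FPKM of granulocyte markers against 34.0 to 39.7. Squared differences between tumor replicates 2 and 3 were only 1.29 times those of counting noise (median over genes, from approximate fragment numbers). The ratio was 2.39 to 125 for every other pair within a group, and whether tumor replicates 2 and 3 share a source is not stated.

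The 3 pairs of groups were each tested with limma over all genes that passed a filter on low values, and a gene was called at a Benjamini-Hochberg adjusted p below 0.05. Changes are differences of log2(FPKM + 1), and the added 1 makes the change of a low gene look smaller: with 0.1 in its place the change between the splenic groups was 6.47 for Itgam, 5.30 for Itgal and 4.36 for Itgb3, against 5.30, 4.30 and 2.10. Between splenic CD45+ and splenic CD45- cells, 9 members could be tested: 7 rose in CD45+ cells (50.5% of all genes tested were called higher), 1 fell (5.01% called lower) and Itga4 did not pass. Between tumor CD45+ and splenic CD45+ cells, all 10 were tested: 3 rose in tumor cells (37.7% of all genes), 5 fell (26.0%) and 2 did not pass. Between tumor CD45+ and splenic CD45- cells, which differ in tissue and gate together, 9 were tested: 7 rose (67.5% of all genes) and 2 fell (22.5%). The median log2 change over all genes tested was 0.67, 0.20 and 1.06 in these comparisons, and over the tested members 2.74, -0.49 and 2.89. Each group enters 2 of the comparisons, so they are not independent of each other.

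In the first comparison 5 tested members (Itgam, Itgal, Itgb3, Icam1 and Pecam1) were below 1 FPKM in every splenic CD45- library and so could be called only as higher. In the second Icam4 and Itgb3 were below 1 FPKM in every tumor library and could be called only as lower. In the third Icam4 could be called only as lower, and Itgam, Itgal, Itgax, Icam1 and Pecam1 only as higher. In sorted bulk cells, fewer cells of a type and less RNA per cell cannot be told apart.

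**Figure D1:**
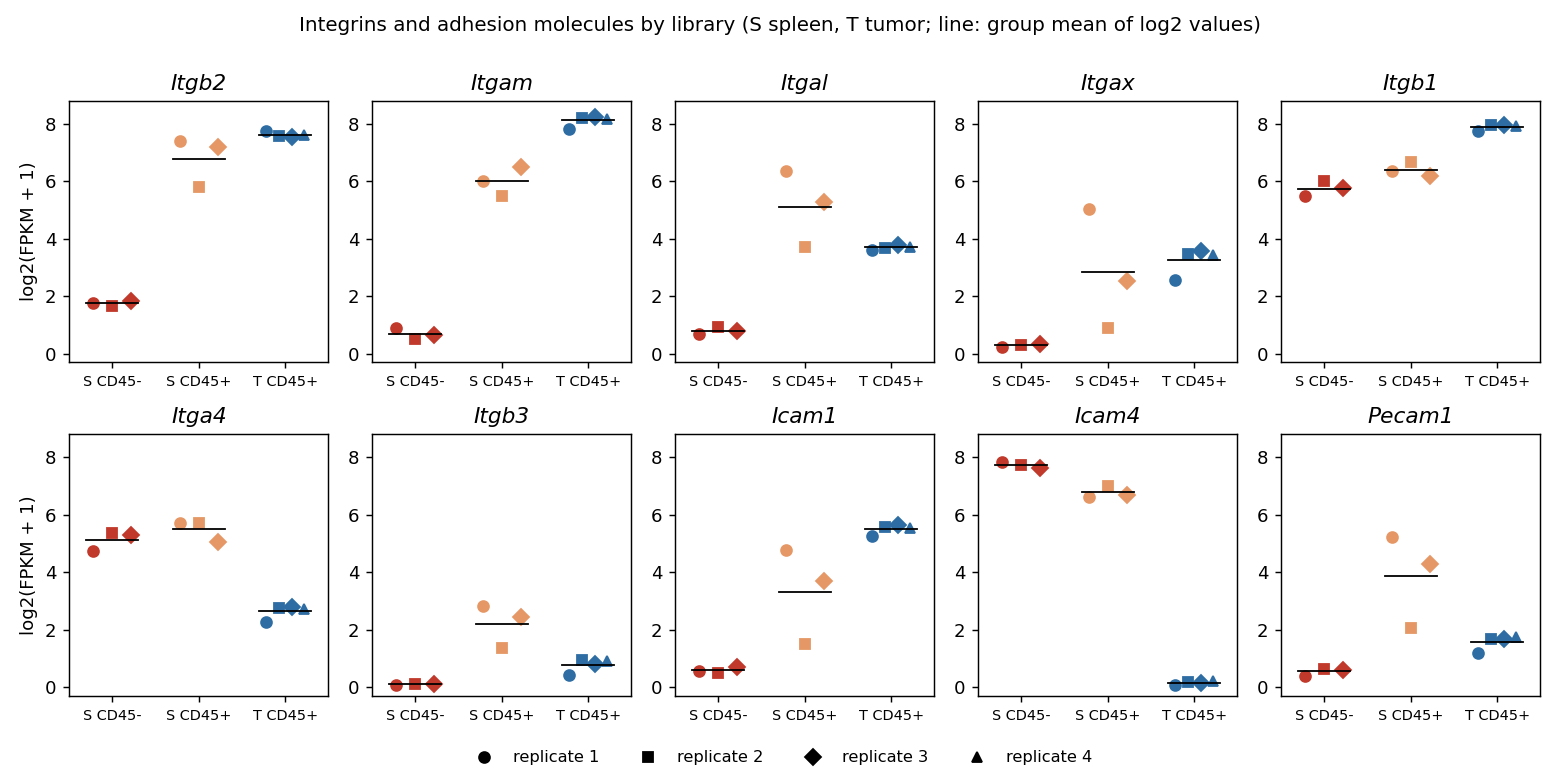
Level of each member in every library, as log2(FPKM + 1) on a common axis, by group (S, spleen; T, tumor) with the marker shape giving the replicate and the line the group mean of the log2 values. Icam4 runs from 196 FPKM or more in splenic CD45- to at most 0.17 FPKM in tumor libraries, Itgb2 and Itgam run the other way, and the splenic CD45+ libraries are widely spread for Itgal, Itgax, Icam1 and Pecam1.

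Itgb2 and its alpha partners come first. Itgb2 was at 2.38, 2.16 and 2.59 FPKM in splenic CD45- replicates 1 to 3, at 166, 54.2 and 144 FPKM in splenic CD45+ replicates, and at 211, 189, 184 and 194 FPKM in tumor CD45+ replicates 1 to 4. Every CD45+ library lay above every CD45- library, and all tumor libraries lay above the splenic CD45+ ones. The rise from splenic CD45- to splenic CD45+ cells was 5.03 ± 0.41 on the log2 scale (SE, limma adjusted p = 5.01e-04). The step from splenic CD45+ to tumor cells, 0.82 ± 0.36, did not pass (adjusted p = 0.0779), and it passed without splenic CD45+ replicate 1 (1.12, adjusted p = 0.03003) or replicate 2 (0.33, 0.03011), with a common sum for all libraries (1.09, 0.01521) and in 1 fit over all libraries (0.03898). Tumor and splenic CD45- cells differed by 5.86 ± 0.08 (adjusted p = 6.20e-11).

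Itgam, the alpha chain of Mac-1, was at 0.86, 0.44 and 0.59 FPKM in splenic CD45-, at 63.2, 43.2 and 89.9 FPKM in splenic CD45+ and at 225, 294, 302 and 286 FPKM in tumor libraries. The 3 groups did not overlap. It rose by 5.30 ± 0.29 on the log2 scale between the splenic groups (adjusted p = 2.53e-04) and by a further 2.12 ± 0.25 from splenic CD45+ to tumor cells (adjusted p = 2.21e-04). Tumor and splenic CD45- cells differed by 7.41 ± 0.13 (adjusted p = 1.29e-10). Beside it, the granulocyte markers summed to 19745 to 67887 FPKM in splenic CD45+ and to 34.0 to 1616 in tumor libraries, while the monocyte and macrophage markers were higher in tumor than in splenic CD45+ libraries. The part of these cells in the Itgam level was not tested.

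Itgal, the alpha chain of LFA-1, followed another course. It was at 0.61, 0.90 and 0.74 FPKM in splenic CD45-, at 80.8, 11.97 and 37.4 FPKM in splenic CD45+ and at 11.1, 11.9, 12.7 and 12.1 FPKM in tumor libraries. Splenic CD45+ libraries differed by several fold among themselves and replicate 2 lay within the tumor range. Itgal rose between the splenic groups (log2 4.30 ± 0.59, adjusted p = 1.59e-03, 3.68 without splenic CD45+ replicate 1 and 5.004 without replicate 2). It was lower in tumor than in splenic CD45+ cells by a call that was close to the threshold (log2 -1.41 ± 0.53, adjusted p = 0.0481). That call was lost without splenic CD45+ replicate 1 (-0.79, adjusted p = 0.121) or 3 (0.126), without any single tumor library (0.0824 to 0.107) and with common-sum, trimmed-mean or median-ratio scaling (0.0628 to 0.0778), and the change was -2.11 without splenic CD45+ replicate 2. The call was also lost with tumor replicates 2 and 3 (0.0858) or 2 to 4 (0.162) counted as 1 sample, with no filter (0.0830) and with a pseudocount of 0.1 (0.0502). B cell markers summed to 1172, 131 and 1084 FPKM and T and NK cell markers to 247, 36.6 and 199 FPKM in splenic CD45+ replicates 1 to 3, and their part in the Itgal level was not tested.

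Itgax was at 0.17, 0.24 and 0.27 FPKM in splenic CD45-, at 31.9, 0.88 and 4.84 FPKM in splenic CD45+ and at 4.94, 10.2, 10.8 and 9.79 FPKM in tumor libraries. Splenic CD45+ replicate 1 was the highest library, and with replicate 2 below 1 FPKM the gene missed the filter in the comparison of splenic groups. The difference between tumor and splenic CD45+ cells did not pass (log2 0.43 ± 0.85, adjusted p = 0.676). The value turned to -0.53 without splenic CD45+ replicate 2 and passed as higher without replicate 1 (1.53, adjusted p = 0.0284). Against splenic CD45- cells tumor cells were higher by 2.97 ± 0.22 (adjusted p = 1.25e-06). The dendritic cell markers summed to 41.4, 5.80 and 32.5 FPKM in splenic CD45+ replicates and to 1.10 to 2.70 FPKM in tumor libraries, where Flt3, Zbtb46, Siglech and Xcr1 were below 1 FPKM throughout. The monocyte and macrophage markers summed to 3829, 1333 and 3643 FPKM in splenic CD45+ replicates and to 20149 to 39908 in tumor libraries. In splenic CD45+ cells all of them but Lyz2 were highest in replicate 1 and lowest in replicate 2. The part of these cells in the Itgax level was not tested.

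Itgad, a further alpha partner of beta 2 known from splenic red pulp macrophages, was at 1.45 to 1.69 FPKM in splenic CD45-, 65.9, 3.22 and 20.2 in splenic CD45+ and at most 0.01 FPKM in tumor libraries. It fell from splenic CD45+ to tumor cells by 4.18 (SE 0.78, adjusted p = 2.25e-03, -3.24 without splenic CD45+ replicate 1 and -5.23 without replicate 2). Its higher level in splenic CD45+ than in CD45- cells (2.82 ± 0.87, adjusted p = 0.0263) missed the threshold with trimmed-mean or median-ratio scaling, with no filter, without any single splenic CD45- library and without splenic CD45+ replicate 3, and was 1.88 without replicate 1 and 3.88 without replicate 2.

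Among the 3 member chains that pair with beta 2, Itgam made up 92.8% to 93.3% of the summed FPKM of Itgam, Itgal and Itgax in the 4 tumor libraries, and Itgal 3.8% to 4.6%. In splenic CD45+ replicates 1, 2 and 3 the Itgam share was 36.0%, 77.1% and 68.0% and the Itgal share 45.9%, 21.3% and 28.3%. Itgad was not in these sums, although in splenic CD45+ replicate 1 it was at 65.87 FPKM, against 63.25 for Itgam. Itgax reached 18.1% in splenic CD45+ replicate 1 and 1.6% and 3.7% in the other two. In splenic CD45- libraries the 3 chains together came to 1.58 to 1.64 FPKM, so their shares there are coarse.

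**Figure D2:**
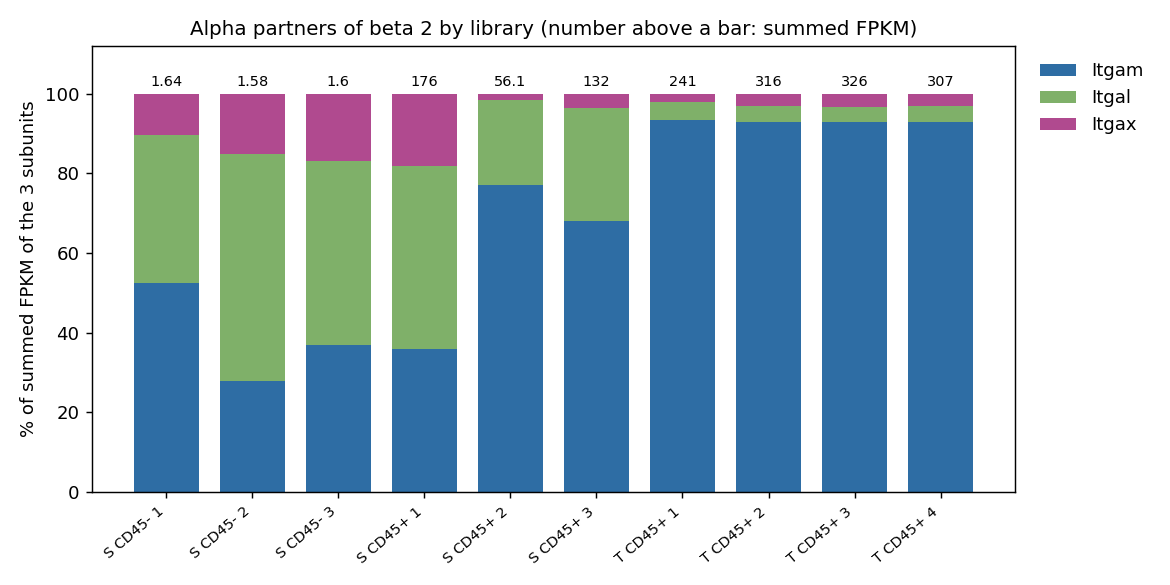
Share of Itgam, Itgal and Itgax in their summed FPKM for every library, in percent, with the sum in FPKM above each bar (S, spleen; T, tumor). Itgam takes 92.8% to 93.3% in tumor libraries and 36.0% to 77.1% in splenic CD45+ libraries, and the splenic CD45- bars rest on sums of 1.58 to 1.64 FPKM.

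Icam4 and Itga4 were both lower in tumor than in splenic cells, and between the splenic groups Icam4 alone of this pair was called. Icam4 was at 224, 208 and 196 FPKM in splenic CD45-, at 97.3, 127 and 101.8 FPKM in splenic CD45+ and at 0.06, 0.14, 0.11 and 0.17 FPKM in tumor libraries. The groups did not overlap, and the tumor values rest on about 1 to 3 fragments per library. Icam4 fell by 0.95 on the log2 scale from splenic CD45- to splenic CD45+ cells (SE 0.18, adjusted p = 4.41e-03), which missed the threshold once all libraries were given the same sum (fell by 0.56, adjusted p = 0.124). It fell by 6.61 from splenic CD45+ to tumor cells (SE 0.15, adjusted p = 8.63e-08) and the change was -8.97 with a pseudocount of 0.1, so the size depends on that choice. Against splenic CD45- cells the fall was also called (log2 -7.55, adjusted p = 4.45e-11). Of its neighbours, Icam1 was at 0.41 to 0.64 FPKM in splenic CD45- and 1.84 to 26.5 FPKM in splenic CD45+ libraries, and Icam5 at 0.73 to 0.77 FPKM in splenic CD45-, 0.46 to 1.13 in splenic CD45+ and 0.04 to 0.08 FPKM in tumor libraries.

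Itga4 was at 25.6, 40.01 and 38.5 FPKM in splenic CD45-, at 51.6, 51.8 and 31.9 FPKM in splenic CD45+ and at 3.85, 5.79, 5.86 and 5.65 FPKM in tumor libraries. The splenic groups overlapped, and every tumor library lay far below every splenic one. Splenic CD45+ cells were above splenic CD45- cells by 0.36 ± 0.28, short of the threshold (adjusted p = 0.302), and the sign reversed under trimmed-mean (-0.19) and median-ratio (-0.20) scaling. From splenic CD45+ to tumor cells Itga4 fell by 2.85 (SE 0.23, adjusted p = 2.63e-05), and from splenic CD45- to tumor cells by 2.49 (SE 0.18, adjusted p = 1.01e-06), with values of -1.90 for a common sum and -3.16 without globin genes.

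Itgb1, the beta chain that joins alpha 4 in VLA-4 and also pairs with many other alpha chains, did not follow Itga4. It was at 43.4, 62.9 and 52.9 FPKM in splenic CD45-, at 80.6, 100.8 and 71.2 FPKM in splenic CD45+ and at 212, 244, 247 and 241 FPKM in tumor libraries, with no overlap of the groups. The difference between the splenic groups, log2 0.66 ± 0.22, passed as deposited (adjusted p = 0.0377) but was no larger than the median over all genes. That call was lost with trimmed-mean (0.10, adjusted p = 0.600) or median-ratio scaling (0.09, 0.666), without globin genes (0.40, 0.153), with no filter (0.0576), without any of the splenic CD45- libraries (0.0531 to 0.139) and without splenic CD45+ replicate 1 (0.0823). From splenic CD45+ to tumor cells Itgb1 rose by 1.49 ± 0.16 (adjusted p = 1.37e-04).

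Set against each other within a library, where the scaling of the library cancels, the levels separated the groups. The ratio of Icam4 to Itgb2 was 94.1, 96.2 and 75.7 in splenic CD45- replicates 1 to 3 and 0.586, 2.35 and 0.706 in splenic CD45+ replicates. In tumor libraries it lay between 0.0003 and 0.0009, on 1 to 3 fragments of Icam4. The ratio of Itga4 to Itgb2 was 10.8, 18.5 and 14.9 in splenic CD45-, 0.311, 0.957 and 0.221 in splenic CD45+ and 0.0182 to 0.0318 in tumor libraries. None of the groups overlapped in either ratio, although splenic CD45+ replicate 2, which had the lowest Ptprc level of its group, lay nearest to the CD45- libraries. Without splenic CD45+ replicate 1 the median log2 ratio of Icam4 to Itgb2 in that group changed from -0.50 to 0.365, and without replicate 3 to 0.23.

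The ratio of Itgb1 to Itga4 was 1.37 to 1.69 in splenic CD45-, 1.56 to 2.23 in splenic CD45+ and 42.1 to 55.1 in tumor libraries. The splenic groups overlapped and the tumor group lay apart. Itgb1 to Itgb2 stood at 18.2 to 29.1 in splenic CD45-, 0.485 to 1.86 in splenic CD45+ and 1.00 to 1.34 in tumor libraries. These ratios are descriptions and carry no test.

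**Figure D3:**
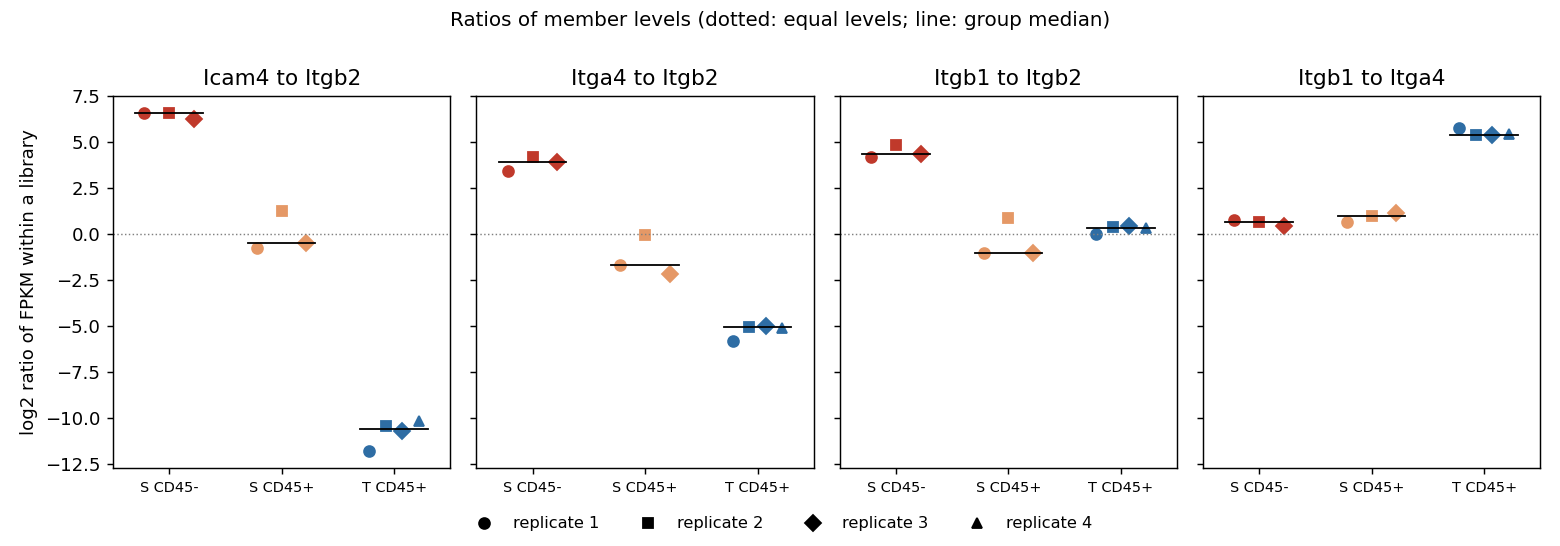
Log2 ratio of the FPKM of 2 members within each library, on a common axis, by group (S, spleen; T, tumor), with the line at the group median and the dotted line at equal levels. Icam4 and Itga4 lie above Itgb2 in every splenic CD45- library and below it in every tumor library, and Itgb1 to Itga4 lies apart in tumor libraries at ratios of 42.1 to 55.1.

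The remaining members are a ligand, a platelet and macrophage integrin chain and an adhesion molecule of endothelium, platelets and leukocytes. Icam1, the inducible ligand of LFA-1 and Mac-1, was at 0.47, 0.41 and 0.64 FPKM in splenic CD45-, at 26.5, 1.84 and 11.9 FPKM in splenic CD45+ and at 37.3, 46.5, 48.2 and 45.3 FPKM in tumor libraries. The groups did not overlap, and splenic CD45+ replicate 2 lay near the CD45- libraries. Icam1 rose between the splenic groups (log2 2.74 ± 0.73, adjusted p = 0.0151), by 2.01 without splenic CD45+ replicate 1 and 3.65 without replicate 2. The call was lost without splenic CD45- replicate 1 (adjusted p = 0.0559), without splenic CD45+ replicate 3 (0.0593) and with no filter (0.0699). From splenic CD45+ to tumor cells it rose by 2.17 ± 0.66 (adjusted p = 0.0209), by 2.90 without splenic CD45+ replicate 1 and 1.26 without replicate 2. This call was lost when globin genes were left out (0.0621) and when tumor replicates 2 to 4 were counted as 1 sample (0.110).

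Pecam1 was at 0.32, 0.56 and 0.52 FPKM in splenic CD45-, at 36.5, 3.21 and 18.5 FPKM in splenic CD45+ and at 1.27, 2.17, 2.17 and 2.35 FPKM in tumor libraries. The highest levels were in splenic CD45+ replicates 1 and 3, and the groups did not overlap. It rose between the splenic groups (log2 3.31 ± 0.71, adjusted p = 6.40e-03, 2.63 without splenic CD45+ replicate 1, 4.21 without replicate 2 and 2.34 with its highest transcript model alone). It fell from splenic CD45+ to tumor cells by 2.30 (SE 0.65, adjusted p = 0.0153), with values of -1.61 without splenic CD45+ replicate 1 and -3.19 without replicate 2. The latter call was lost without splenic CD45+ replicate 3 (0.0601) and with tumor replicates 2 to 4 as 1 sample (0.0718). The endothelial markers Cdh5, Kdr, Tek, Emcn and Cldn5 were below 1 FPKM in every splenic library, and all 6 endothelial markers summed to 1.20 to 3.30 FPKM in splenic CD45+ libraries.

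Itgb3 was the lowest member in splenic CD45- libraries, at 0.06, 0.09 and 0.08 FPKM, and was at 6.08, 1.59 and 4.39 FPKM in splenic CD45+ and 0.33, 0.91, 0.76 and 0.86 FPKM in tumor libraries. The groups did not overlap. It rose between the splenic groups (log2 2.10 ± 0.36, adjusted p = 2.91e-03) and fell from splenic CD45+ to tumor cells by 1.45 (SE 0.33, adjusted p = 5.63e-03). Itga2b, its partner on megakaryocytes and platelets, was at 1.66 ± 0.13 FPKM (SD, n = 3) in splenic CD45-, 2.36 ± 1.14 (SD, n = 3) in splenic CD45+ and 0.20 ± 0.08 (SD, n = 4) in tumor libraries. The 5 megakaryocyte and platelet markers summed to 32.8 to 35.5 FPKM in splenic CD45-, 10.6 to 26.8 in splenic CD45+ and 599 to 873 FPKM in tumor libraries. In tumor libraries Pf4 was at 593 to 859 and Ppbp at 6.32 to 12.8 FPKM, and Gp9, Gp1ba and Gp1bb were below 1 FPKM. In splenic libraries Gp9 was at 31.5 to 34.2 FPKM in CD45- and 7.39 to 25.4 in CD45+ cells, and Gp1ba and Gp1bb were below 1 FPKM.

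**Figure D4:**
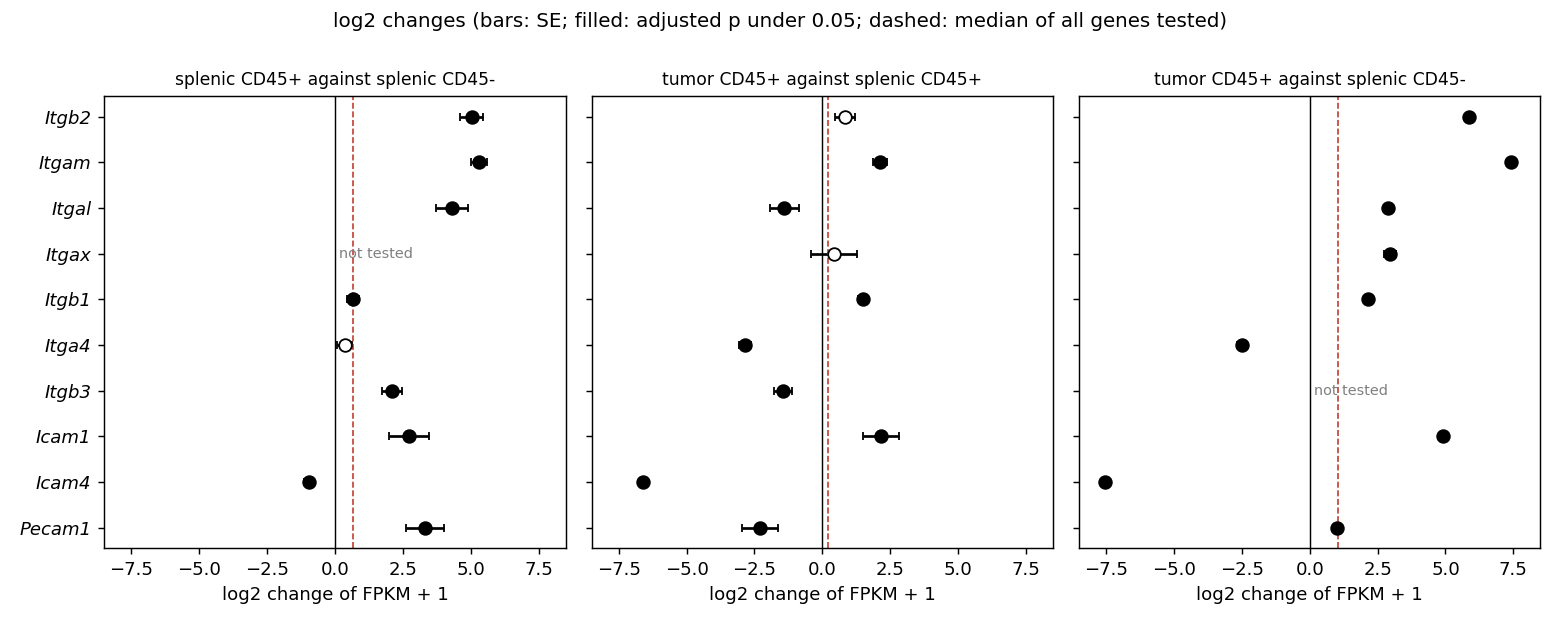
Log2 change of each member in the 3 comparisons, as the difference of log2(FPKM + 1) between the first and the second group named, with bars for the SE, filled points for an adjusted p under 0.05 and a dashed line at the median of all genes tested. Icam4 and Itga4 fall in both comparisons with tumor cells, Itgam, Itgb1 and Icam1 rise in both, and the SE is widest for Itgax (0.85).

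By level, Itgam, Itgb1 and Icam1 were ordered splenic CD45- below splenic CD45+ below tumor, and each step passed the test, with the reservations given for Itgb1 and Icam1. Itgb2 had the same order, with a last step that did not pass. Icam4 had the reverse order. Pecam1, Itgb3 and Itgal were highest in splenic CD45+ cells, then in tumor and then in splenic CD45- cells. The reservations given for the falls of Pecam1 and Itgal to tumor cells apply here too. For Itgal, splenic CD45+ replicate 2 lay within the tumor range. Itgb3 was not tested between tumor and splenic CD45- cells. Tumor cells were above splenic CD45- cells for Pecam1 by 1.02 ± 0.14 (adjusted p = 9.71e-05, lost in 1 fit over all libraries, 0.121) and for Itgal by 2.89 ± 0.09 (adjusted p = 2.43e-09).

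Other integrin chains were mostly low in the spleen. The counts for the further lists, from here on, stand beside these shares of all genes tested. Between the splenic groups 50.5% were called higher and 5.01% lower. Between tumor and splenic CD45+ cells 37.7% were called higher and 26.0% lower. Counts with trimmed-mean scaling have another background. With that scaling 3190 of 9728 genes tested were higher and 1741 lower between the splenic groups. Between tumor and splenic CD45+ cells 4318 of 11463 were higher and 3212 lower with it. Of 14 other alpha chains 3 were tested between the splenic groups, where 2 rose (none with trimmed-mean scaling), and 8 between tumor and splenic CD45+ cells, where 6 rose and 2 fell. Itga5, the fibronectin receptor chain, rose from 2.07 ± 1.17 to 42.0 ± 2.70 FPKM (SD, n = 3 and 4) from splenic CD45+ to tumor cells (log2 3.87, adjusted p = 7.41e-06), and Itga6, a laminin receptor chain, from 2.10 ± 1.22 to 16.7 ± 0.75 FPKM (log2 2.60, adjusted p = 1.34e-04). Itgav, the alpha chain that binds ICAM-4 and was picked for this after its values were seen, was at 0.05 to 0.10 FPKM in splenic CD45-, 6.27, 0.79 and 3.20 in splenic CD45+ and 18.8 to 19.9 FPKM in tumor libraries. It was high in the libraries where Icam4 was near 0 and at most 0.10 FPKM where Icam4 was highest. Among the 5 other beta chains Itgb7, the second partner of alpha 4, rose from 0.90 ± 0.21 to 35.7 ± 26.7 FPKM between the splenic groups (log2 3.92, adjusted p = 2.14e-03, and 4.67 without splenic CD45+ replicate 2). In tumor libraries Itgb7 was at 17.1 ± 3.33 FPKM (log2 -0.68 against splenic CD45+, adjusted p = 0.316). Itgb5, a partner of alpha V, rose from 11.2 ± 14.0 to 96.2 ± 1.48 FPKM from splenic CD45+ to tumor cells (log2 3.77, adjusted p = 2.92e-03, 4.76 without splenic CD45+ replicate 1 and 2.86 without replicate 2).

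Of 12 other integrin ligands with a value 4 were tested between the splenic groups, where 3 rose, and 7 between tumor and splenic CD45+ cells, where 4 rose, and none fell. Among those that rose between the splenic groups, Fn1 (0.31 to 0.43 FPKM) and Icam2 (0.28 to 0.35 FPKM) were below 1 FPKM in every splenic CD45- library. Both could be called there only as higher. Vcam1, the ligand of VLA-4 on island macrophages, was at 3.39 to 4.56 FPKM in splenic CD45-, at 408, 13.2 and 82.7 FPKM in splenic CD45+ and at 17.7 to 40.6 FPKM in tumor libraries. Its rise between the splenic groups (log2 4.01 ± 1.04, adjusted p = 0.0137) varied with the splenic CD45+ libraries used: it was 2.82 without replicate 1 and 5.24 without replicate 2, and missed the threshold without replicate 3, without splenic CD45- replicate 1 and with no filter. Fn1, fibronectin, rose from 0.37 ± 0.06 to 24.3 ± 9.85 FPKM between the splenic groups (log2 4.13, adjusted p = 3.41e-04, and 3.24 with its highest transcript model alone) and to 188 ± 35.5 FPKM in tumor cells (log2 2.95 against splenic CD45+, adjusted p = 5.22e-05). Spp1, osteopontin, a ligand of alpha V and alpha 4 integrins, was at 0.42 to 2.71 FPKM in splenic CD45+ and 1549 to 1730 FPKM in tumor libraries (log2 9.32 ± 0.31, adjusted p = 3.95e-07).

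Of 18 genes whose proteins switch integrins on or tie them to actin, 16 were tested between the splenic groups, where 11 rose and 1 fell (9 and 2 with trimmed-mean scaling), and all 18 between tumor and splenic CD45+ cells, where 7 rose and 4 fell. Between the splenic groups Skap2, an adaptor of integrin activation, rose from 2.34 ± 0.08 to 41.0 ± 16.2 FPKM (log2 3.56, adjusted p = 6.49e-04), and Pxn, paxillin, from 2.14 ± 0.26 to 27.5 ± 10.3 FPKM (log2 3.11, adjusted p = 7.23e-04). Apbb1ip, the Rap1 effector RIAM, rose from 8 ± 0.74 to 40.9 ± 9.22 FPKM (log2 2.20, adjusted p = 7.38e-04). The integrin tail binders Tln1 (talin) and Fermt3 (kindlin 3), named after their values were seen, were at 68.5 ± 10.8 and 54.2 ± 6.37 FPKM in splenic CD45- cells. In splenic CD45+ cells they were at 100.6 ± 19.2 and 77.3 ± 11.4 FPKM, and neither difference passed (adjusted p = 0.0697 and 0.0613). Rap1b, the small GTPase that signals to talin, rose from 152 ± 45.7 in splenic CD45+ to 594 ± 19.0 FPKM in tumor cells (log2 2.01, adjusted p = 1.58e-04). Rasgrp2, an exchange factor of Rap1, fell from 47.0 ± 29.0 to 4.83 ± 1.74 FPKM (log2 -2.83, adjusted p = 1.82e-03, -3.49 without splenic CD45+ replicate 2 and -1.79 with the highest transcript model of the gene alone).

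Selectins, other immunoglobulin-type molecules and island proteins completed the set. Of 10 selectins and selectin ligands, 4 of 6 tested rose between the splenic groups (4 rose and 1 fell with trimmed-mean scaling). From splenic CD45+ to tumor cells 2 of 7 rose and 3 fell. Of 14 other immunoglobulin-type molecules 5 of 7 tested rose between the splenic groups (5 rose and 1 fell with trimmed-mean scaling). From splenic CD45+ to tumor cells 5 of 9 rose and 2 fell (5 and 3 with trimmed-mean scaling). Alcam, a ligand of CD6, rose from 4.04 ± 2.55 in splenic CD45+ to 45.8 ± 3.21 FPKM in tumor cells (log2 3.38, adjusted p = 1.73e-04). Of 5 genes of erythroblast and island adhesion 2 of 3 tested rose between the splenic groups (1 rose and 1 fell with trimmed-mean scaling), and 3 of 4 rose and 1 fell from splenic CD45+ to tumor cells. The falling one was Cd47, the signal that restrains phagocytosis, from 249 ± 36.1 to 115 ± 6.19 FPKM (log2 -1.10 ± 0.15, adjusted p = 4.72e-04).

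Over the 10 libraries, and among 7940 genes with a mean of at least 1 and a maximum of at least 10 FPKM, the patterns most like that of Itgb2 were those of Flna, Zyx and Gpsm3 (Pearson r of log2(FPKM + 1) of 0.999, 0.998 and 0.998), against 0.982 for Itgam, 0.872 for Itgal and 0.864 for Itgax. For Icam4 they included Dmtn and Slc43a1 (r of 0.9996 for both), with Itga4 at 0.958. For Itga4 they included Atf7ip and Kdm6a (0.999 and 0.994). The points share their libraries and fall into 3 groups.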

How the data were processed

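RNA of 10 libraries was measured. Per the submitters' processing notes the build was GRCm38.p6. The sources used here name no aligner, quantifier or filter. Each library came as a table, deposited by the authors, of 61685 RefSeq transcript models. No header or label names the unit, and the deposited values were read as FPKM from their sums. Plain sums differed between libraries (801072 to 1367791). Sums of value times transcript length in kilobases, over the 24219 models whose length was known, were alike (963664 to 1163718). Of the models 60177 carried a symbol and were summed to 17606 genes, and the 1508 without one (0.425% to 1.06% of the FPKM) were left out. Each pair of groups was fitted by limma 3.58.1 (R 4.3.3), with an intensity trend, to log2(FPKM + 1) values without covariates. Genes had to reach 1 FPKM in 3 or more libraries of that pair, only the 2 groups entering a fit. The design allowed for counts and the deposited unit called for this test. The fit was tested on simulated data, with no result given here. How it holds where groups differ in spread, as the splenic CD45- and splenic CD45+ libraries did, was not tested. The members and lists were chosen with earlier results of these data known. All 10 members are named, and of the other lists the genes with the smallest adjusted p (at most 3 per list, direction and comparison), unless stated. Some genes that this rule or the search for like patterns would name are not reported here. The step that 1 fragment is worth was read from low values of genes with 1 model. Fga, Fgb and Fgg were not analysed here, and Fyb1 was read under its older symbol Fyb. Alternatives covered the pseudocount, the filter, the scaling, the model sum, the fit and single libraries. Promoter windows came from the RefSeq table of GRCm38.p6. Python 3.11.15 with pandas 2.3.3 and matplotlib 3.10.9 was used for the rest.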

Additional observations from a re-analysis of the deposited data

Results flagged for a closer look

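In 14 sets of 4 tumor libraries (the 10 members and 4 ratios) 5 had a library whose gap to its nearest neighbour took up more of the range than Dixon's 95% critical value for 4 values, and chance alone gives about 1 in 20 where the 4 values are independent. Squared differences among tumor replicates 2, 3 and 4 were 1.29 to 2.64 times those of counting noise. Between these and replicate 1 the ratio was 13.3 to 15.6, so the rate of 1 in 20 may not hold here. In each of the 5 sets the library was tumor replicate 1. It was low for Itga4 (3.85 FPKM against 5.65 to 5.86), for Itgb1 (212.29 FPKM against 241 to 247) and for Pecam1 (1.27 FPKM against 2.17 to 2.35). The log2 ratio of Itga4 to Itgb2 was -5.778 there, and that of Itgb1 to Itga4 was 5.785. These 5 values share genes and so are not independent. The same library held 10.4% of its FPKM in globins against 1.80% to 1.87% in the other tumor libraries, and 3.80 FPKM of T and NK cell markers against 30.5 to 31.0. Their part in the member levels was not tested. Itga4, Itgb1 and Pecam1 kept their calls without this library in both comparisons with tumor cells, Pecam1 against splenic CD45+ cells at an adjusted p of 0.04908 (limma).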

How the results depend on the processing

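Of 477 recomputed log2 changes of members, 438 kept their direction and side of the threshold, 31 lost and 5 gained a call and 3 reversed: Itga4 between the splenic groups (-0.1862 with trimmed-mean and -0.2038 with median-ratio scaling) and Itgax between tumor and splenic CD45+ cells (-0.5302 without splenic CD45+ replicate 2, and 1.5334 without replicate 1). Maea, of the island list, reversed to -0.0138 between the splenic groups with median-ratio scaling and to -0.1178 between tumor and splenic CD45+ cells without globin genes. The cause was not tested. Members higher between the splenic groups ranged from 5 to 7 with single libraries left out (5 without splenic CD45- replicate 1), and those lower went from 1 to 0 after scaling to a common sum. Without splenic CD45- replicate 1, 3761 of all 9728 genes tested were higher, and with the common sum 121 were lower. Between tumor and splenic CD45+ cells the members higher ranged from 3 to 5 and those lower from 3 to 5 with single libraries left out (5 higher without splenic CD45+ replicate 1, 3 lower without replicate 3), and 3 were lower with tumor replicates 2 to 4 counted as 1 sample, an alternative chosen after seeing the data. Among all 11463 genes tested, 4517 were higher without splenic CD45+ replicate 1 and 3110 lower without replicate 3. In the alternative with merged tumor replicates 1864 were lower. Of all genes, 4912 were higher and 487 lower between the splenic groups. These became 3190 and 1741 with trimmed-mean and 3189 and 1750 with median-ratio scaling, so that the share of calls that were higher went from 91.0% to 64.7% and 64.6%. The lower count was 121 after scaling to a common sum, 882 without globin genes and 206 to 1422 with single libraries left out (1422 without splenic CD45+ replicate 2). Between tumor and splenic CD45+ cells 2985 genes were lower, 1970 after scaling to a common sum (70.3% of calls higher against 59.2%) and 1864 with tumor replicates 2 to 4 as 1 sample, and 41.1% of calls were higher without globin genes. Between tumor and splenic CD45- cells 2521 were lower, 1621 after scaling to a common sum and 3782 without globin genes (61.6% of calls higher against 75%). Trimmed-mean scaling moved the median of all genes from 0.67 to 0.19 between the splenic groups and from 1.06 to 0.64 between tumor and splenic CD45- cells. The median log2 ratio of Icam4 to Itgb2 was 5.913 in place of 6.556 in splenic CD45- libraries with the highest transcript model alone, and -9.698 in place of -10.553 in tumor libraries with a pseudocount of 0.1. In a check of pairing, 2 of 9 same-numbered pairs had a correlation of deviations over 0.1 (-0.175 to 0.235). Of pairs with other numbers 5 of 24 did (-0.317 to 0.251). With so few libraries per group, this check cannot tell whether same-numbered libraries share a mouse. With a replicate block 7 members were higher and 1 lower between the splenic groups, 3 and 4 between tumor and splenic CD45+ cells (Itgal lost, adjusted p = 0.0521) and 7 and 2 between tumor and splenic CD45- cells. Among all genes, the block gave 4444 higher and 407 lower of 9728 tested between the splenic groups. It gave 3422 and 2262 of 11463 between tumor and splenic CD45+ cells, and 7557 and 2572 of 11208 between tumor and splenic CD45- cells. At this depth Icam4 in tumor libraries (1 to 3 fragments) and Itgb3 in splenic CD45- libraries (7 to 10) are at the limit of the depth.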

Other observations

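The deposited tables split several members over transcript models. The 2 models of Icam4 (971 and 1028 bases) kept nearly the same proportions on both sides of the gate: the first held 64.1% to 66.3% of the Icam4 level in splenic CD45- and 65.5% to 67.2% in splenic CD45+ libraries. In tumor libraries the few fragments allow no share. Of the 2 models of Itgam the first held 53.4% to 62.2% in splenic CD45+ and 53.2% to 59.1% in tumor libraries. Itgb2 rested on 1 of its 4 models, with 88.3% to 90.5% in splenic CD45+ and 89.0% to 91.0% in tumor libraries. Itgal was spread over 5 models, of which the most abundant held 49.8% to 55.3% in splenic CD45+ and 42.6% to 52.9% in tumor libraries. Pecam1 had 4 models, and its most abundant one held 40.2% to 42.7% in splenic CD45+ libraries. Differences between these shares were not tested, and the sources used here do not state how the authors divided fragments between models.

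Tumor libraries also held transcripts of Krt8 (208 to 239 FPKM) and Krt18 (95.4 to 164 FPKM), keratins of simple epithelium, with Epcam, Krt5 and Krt14 below 1 FPKM in every tumor library.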
